A study of Mus musculus with 6 samples.

Results

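The Ly6 family of small surface proteins was followed in RNA sequencing libraries of mouse monocytes from inflamed kidney and from spleen and bone marrow. Of 7 Ly6 genes listed by name (Ly6c1, Ly6c2, Ly6a, Ly6e, Ly6i, Ly6d and Ly6g), 6 were found in both the deposited count table of 24047 gene rows and the deposited FPKM table, and Ly6g was not analysed here. All libraries came from wild-type mice, strain label C5/Bl6, 8 to 10 weeks old, in which nephrotoxic nephritis had been induced, an antibody-driven injury of the kidney's filtering units. The series used 10 such mice, killed on day 13, and no library of healthy mice was used here. The kidney group holds replicates 7, 8 and 22, named double_pos, of monocytes enriched with an EasySep kit and sorted. The spleen and marrow group holds replicates 2, 24 and 26, named double. Neither name gives the markers, and no isolation steps are given for the spleen and marrow group. Nothing in the labels ties the libraries of a group to separate mice or to pools. The p-values therefore measure only the spread between these libraries, which may be technical. The series, by its title, concerns how monocytes become monocyte-macrophages in inflamed vasculature.

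Ly6 proteins have a compact fold held by disulphide bonds, the three-finger fold shared with the urokinase receptor, and most are tethered to the outer leaflet of the membrane by a glycosylphosphatidylinositol (GPI) anchor. In mice their genes lie in a cluster on chromosome 15 that arose by repeated duplication, so that neighbours can be close in sequence. Ly6C on the cell surface separates classical, inflammatory monocytes, which carry much of it, from non-classical, patrolling monocytes, which carry little. Ly6C is made from Ly6c1 and Ly6c2, and Ly6a encodes Sca-1, the stem cell antigen that is also found on endothelium and activated lymphocytes.

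The closeness of the Ly6c pair bears on how its values can be read. In the GENCODE M21 transcripts (GRCm38), the coding sequences of Ly6c1 and Ly6c2 were both 396 bases long and differed at 9 bases, an identity of 97.7%. Their longest identical run was 188 bases, longer than the mean fragment of 150 bp of these libraries. Of the 50-base windows along the 822-base transcript of Ly6c2, 252 of 773 (32.6%) also occur in a Ly6c1 transcript, and 15.8% of 100-base windows do. The stretch with most of the differences, the first 90 coding bases, is printed for the pair and for the next closest members. Capitals mark bases that differ between Ly6c1 and Ly6c2 in the first 2 lines, and bases that differ from Ly6c2 in the last 2.
Ly6c1: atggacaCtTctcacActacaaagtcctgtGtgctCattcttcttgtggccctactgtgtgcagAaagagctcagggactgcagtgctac
Ly6c2: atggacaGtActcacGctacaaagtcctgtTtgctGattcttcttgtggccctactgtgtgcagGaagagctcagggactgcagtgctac
Ly6a: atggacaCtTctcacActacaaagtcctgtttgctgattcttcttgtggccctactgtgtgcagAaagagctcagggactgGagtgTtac
Ly6i: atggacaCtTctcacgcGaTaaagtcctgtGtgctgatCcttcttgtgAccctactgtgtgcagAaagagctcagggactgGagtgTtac
This stretch held 6 of the 9 differences. Counted from the first base of the start codon, with the base of Ly6c1 first, they were C8G, T10A, A16G, G31T, C36G and A65G, and the others were G254A, T327C and G376A. Over the whole coding sequence Ly6a was 81.7% and Ly6i 81.5% identical to Ly6c2, and Ly6a and Ly6i were 86.4% identical to each other. Ly6c1 and Ly6a shared 40 of 795 windows of 50 bases and Ly6a and Ly6i 31 of 770, and no window of 100 bases was shared by any pair but Ly6c1 and Ly6c2. Ly6e and Ly6d had no window of 50 bases in common with another member.

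Total counts were lowest in kidney replicate 22 (3492391) and highest in replicate 26 of the other group (9727489). Of all counts, the 6 members together took 0.282% to 0.643% in kidney libraries, below the 0.913% to 1.01% of the other group. Spleen and marrow replicates 24 and 26 differed less from each other than any other pair within a group (chi-square per degree of freedom 2.96, against 23.7 to 65.3). This is more than counting noise alone gives, but does not show that they are separate preparations or mice. They were kept as separate libraries, and with their counts summed Ly6c2 was the only member still called (edgeR, 0 higher and 1 lower). Kidney replicate 22 correlated with the other kidney libraries at r = 0.840 and 0.838 over log2 CPM of all genes tested, below the 0.938 of replicates 7 and 8. All 14 classical monocyte markers had counts in all 6 libraries, but so did all 12 non-classical monocyte markers and all 14 neutrophil markers.

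Most members differed between the sites, and they did so in both directions. Ly6c2 and Ly6e were lower in the kidney libraries, Ly6c1, Ly6a and Ly6i were higher by their counts, and Ly6d did not pass the test. All 6 passed the filter on low counts, and with edgeR's quasi-likelihood test and Benjamini-Hochberg adjustment over 10626 genes 3 were higher and 2 lower. Among all genes tested, 7.83% were called higher and 5.9% lower, and 13.7% in either direction. In 5 of the 6 members the groups did not overlap in CPM, counts scaled by the adjusted library size, and this held for 37.9% of all genes tested (kidney higher in 19.2% and lower in 18.8%). In these bulk samples fewer cells of a type and less RNA per cell cannot be told apart.

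**Figure D1:**
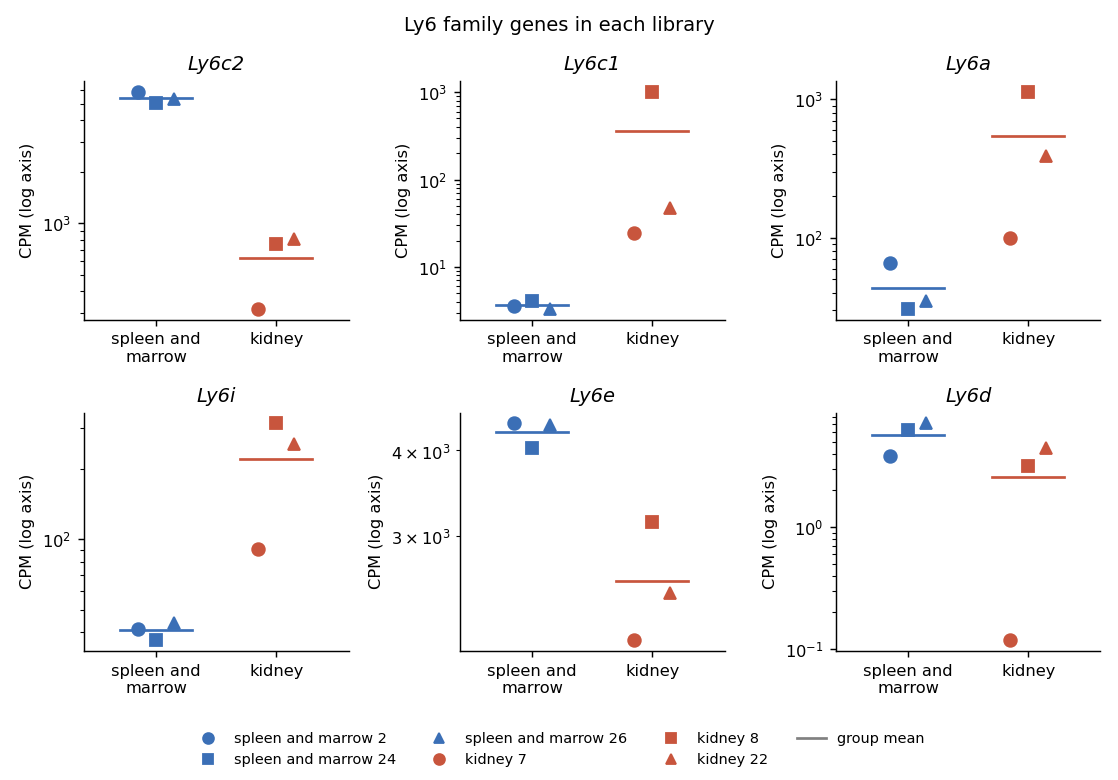
Scaled counts (CPM, log axes that start above 0) of each Ly6 gene in 3 spleen and marrow libraries (blue) and 3 kidney libraries (red), with horizontal lines at the group means and a marker shape for each replicate. The groups are apart for every gene but Ly6d, and kidney replicate 8 (red square) is highest of the kidney libraries for Ly6c1, Ly6a, Ly6i and Ly6e.

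Ly6c2, the main Ly6C gene of blood and marrow monocytes, was at 5859.7, 5020.0 and 5356 CPM in the spleen and marrow group (replicates 2, 24 and 26, in this order throughout). In the kidney group (replicates 7, 8 and 22, in this order throughout) it was at 317, 752 and 810.5 CPM. Every kidney library was below every spleen and marrow library, and replicate 7 was the lowest. The level fell 8.64-fold (log2 fold change -3.11 ± 0.34, SE, n = 3 in each group, edgeR with Benjamini-Hochberg adjusted p = 0.00149). The FPKM values, which are scaled by depth and transcript length, showed the same separation, at 4284, 3715 and 3923 against 246, 709 and 452. The call held in 17 of 17 alternative settings, with log2 fold changes between -3.35 and -2.78.

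Ly6c1, the copy of Ly6C known from endothelium as well as from lymphocytes, was at the opposite end in counts. It had 31, 30 and 31 counts in spleen and marrow (3.56, 4.10 and 3.32 CPM) and 207, 7980 and 159 counts in kidney (24.5, 1008 and 46.7 CPM). Replicate 8 stood far above the other kidney libraries, which were themselves above all 3 spleen and marrow libraries. The log2 fold change was 6.62 ± 1.51 (SE, n = 3, edgeR adjusted p = 0.0262), and without kidney replicate 8 it was 3.27 ± 0.38 (edgeR adjusted p = 0.00522). The call was lost without any single spleen and marrow library (edgeR adjusted p = 0.112 to 0.133), in limma-voom (adjusted p = 0.229) and in a robust edgeR fit (adjusted p = 0.0580).

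The FPKM table did not show this rise. There Ly6c1 was at 619, 529 and 563 FPKM in the spleen and marrow libraries and at 52.8, 841 and 95.9 FPKM in the kidney libraries. Replicates 7 and 22 were below every spleen and marrow library and replicate 8 was above them, so the groups overlapped. The log2 fold change on the log2(FPKM + 1) scale was -1.80 ± 0.90 (SE, limma-trend adjusted p = 0.243), opposite in sign to that of the counts. The direction of Ly6c1 therefore differs between the deposited tables, and it is uncertain.

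The share of Ly6c1 in the pair shows where the tables part. By counts Ly6c1 was 0.0607%, 0.0817% and 0.0620% of Ly6c1 plus Ly6c2 in spleen and marrow. In the kidney it was 7.19% (95% Clopper-Pearson interval 6.27% to 8.19%) in replicate 7, 57.3% (56.4% to 58.1%) in replicate 8 and 5.45% (4.65% to 6.33%) in replicate 22, intervals that cover counting error only. By FPKM it was 12.6%, 12.5% and 12.5% in spleen and marrow and 17.7%, 54.3% and 17.5% in kidney replicates 7, 8 and 22. In both tables the kidney libraries were above the spleen and marrow libraries, and in both Ly6c1 exceeded Ly6c2 in replicate 8 alone. In replicate 8 the share by counts was 3.01 percentage points above that by FPKM, and in the other 5 libraries it was 10.5 to 12.6 points below. The mean difference between the sites was 23.2 percentage points by counts and 17.3 by FPKM, with an exact two-sided permutation p = 0.1 for each, the smallest that 3 against 3 libraries can give. By counts the difference was 6.25 points without kidney replicate 8, 31.3 without replicate 7 and 32.2 without replicate 22.

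The sum of the pair does not depend on how reads were split between its copies. Ly6c1 plus Ly6c2 was at 5863, 5024 and 5359 CPM in spleen and marrow and at 341, 1761 and 857 CPM in kidney replicates 7, 8 and 22. All kidney libraries were below all spleen and marrow libraries, with replicate 8 the highest of the kidney group. With the pair entered as 1 row in the fit of all genes, the sum fell 5.49-fold (log2 fold change -2.46 ± 0.51, SE, n = 3, edgeR adjusted p = 0.0176 over 10625 rows). In FPKM the sum was 4903, 4244 and 4486 against 299, 1549.5 and 547. The call was lost without any single spleen and marrow library (edgeR adjusted p = 0.0638 to 0.0788), while the log2 fold change stayed between -2.53 and -2.41.

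**Figure D2:**
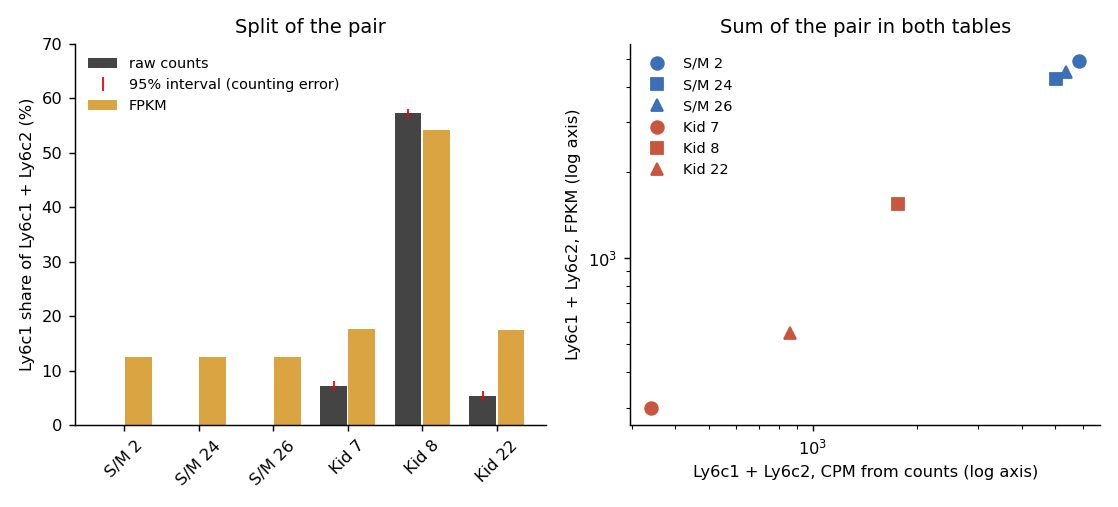
Left, the share of Ly6c1 in Ly6c1 plus Ly6c2 in percent for each library, from raw counts (dark bars, with 95% intervals for counting error in red) and from FPKM (yellow bars). Right, the sum of the pair in FPKM against CPM on log axes. The count bars of the spleen and marrow libraries are below 0.1% and hardly visible beside FPKM bars near 12.5%, while the sums rank the 6 libraries alike in both tables.

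The ratio of FPKM to unadjusted CPM was then compared for each member across libraries, after division by the median ratio of the library's genes. Where both tables count the same reads, a gene's ratio should hardly change from library to library, and the median gene varied 1.15-fold from its lowest to its highest library over 7128 genes with at least 20 counts in every library. Ly6c1 varied 220-fold, from 4.26 (kidney 8) to 938 (spleen and marrow 2), and 0% of these genes varied more. The other members were close to the median gene: Ly6e varied 1.03-fold, Ly6a 1.18-fold, Ly6i 1.22-fold and Ly6c2 1.23-fold. Ly6d, which has few counts, varied 1.59-fold. Taken as a sum, Ly6c1 plus Ly6c2 varied 1.07-fold, and 80.2% of genes varied more. The deposited tables thus differ in how they divide the pair and hardly in its total.

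**Figure D3:**
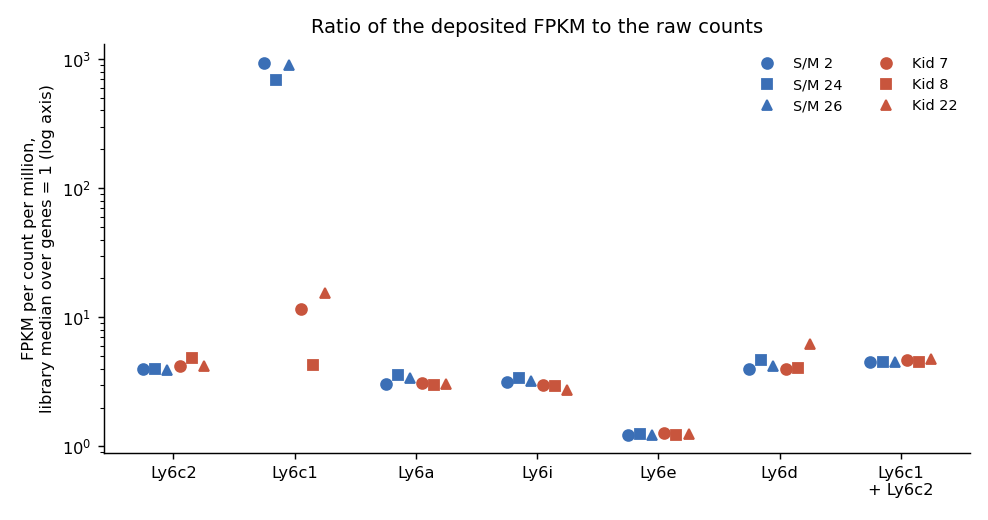
Ratio of FPKM to unadjusted CPM, divided by the median over genes of the same library (log axis), for each Ly6 gene and for the sum of the Ly6c pair, with 1 point for each of 6 libraries. The points of a gene lie together except for Ly6c1, which spans 4.26 to 938, and its sum with Ly6c2 spans 4.47 to 4.79.

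The start sites of the pair are less alike than its coding sequences. The RefSeq promoter table (GRCm38.p6) had 2 entries each for Ly6c1 and Ly6c2 and none for the other tested members. The 250 bases before the most upstream entry of each gene are printed because the copies differed in level within libraries, by both tables, although by how much depends on the table. Both are on the minus strand, Ly6c1 at chr15:75048838-75049087 and Ly6c2 at chr15:75111972-75112221, and capitals mark the motifs found of those searched on both strands. GAGGAA holds the core letters bound by PU.1 and other ETS factors. The letters TATAAA form the core promoter box bound by the factor TBP.
Ly6c1: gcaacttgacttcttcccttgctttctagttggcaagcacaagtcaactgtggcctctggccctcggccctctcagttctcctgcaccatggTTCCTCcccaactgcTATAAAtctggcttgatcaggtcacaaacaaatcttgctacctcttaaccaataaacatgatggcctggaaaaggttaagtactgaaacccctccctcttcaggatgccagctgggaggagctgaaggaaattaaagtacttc
Ly6c2: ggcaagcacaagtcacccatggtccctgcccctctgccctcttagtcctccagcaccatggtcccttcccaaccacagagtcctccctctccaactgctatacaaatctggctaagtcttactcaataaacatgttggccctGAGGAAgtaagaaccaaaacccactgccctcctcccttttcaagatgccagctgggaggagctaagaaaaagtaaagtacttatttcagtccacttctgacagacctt
Aligned over their length these windows had 164 identical bases among 216 paired bases. Over all 284 alignment columns this was 57.7%, because gaps counted as differences, while the coding sequences aligned without gaps at 97.7%. The windows are set by the annotated starts, so the 57.7% also depends on where these lie. GAGGAA lay 158 bases before the start of Ly6c1, on the opposite strand, and 108 bases before the start of Ly6c2, and 23.3% of 32851 promoter windows of the same length hold it. TATAAA was found in Ly6c1, 143 bases before the start, and 12.4% of promoter windows hold it. Whether it acts as a core promoter box there was not tested. Before the second entry of Ly6c1, GAGGAA lay at 127 bases and TATAAA was not found. Before the second entry of Ly6c2, GAGGAA lay at 142 and at 8 bases, also without TATAAA. Neither window holds TTCNNNGAA, the letters of a gamma-activated site, which are in 7.02% of promoter windows.

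Ly6a and Ly6i were higher in the kidney libraries. Ly6a was at 65.5, 30.8 and 34.8 CPM in spleen and marrow and at 100.1, 1133 and 391 CPM in kidney. The groups did not overlap, and the lowest kidney library was 1.53-fold above the highest library of the other group. The log2 fold change was 3.63 ± 0.80 (SE, n = 3, edgeR adjusted p = 0.0235), and without kidney replicate 8 it was 2.49 ± 0.60 (edgeR adjusted p = 0.0403). In FPKM Ly6a was at 37.1, 20.4 and 21.95 against 57.9, 665 and 159. Its call was lost in limma-voom (adjusted p = 0.0638), in limma-trend on log2(FPKM + 1) (adjusted p = 0.0581) and without any single spleen and marrow library (edgeR adjusted p = 0.0858 to 0.118).

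Ly6i, a member described in macrophages and other myeloid cells, was at 41.3, 36.9 and 43.8 CPM in spleen and marrow and at 90.7, 315 and 257 CPM in kidney replicates 7, 8 and 22. Here replicates 8 and 22 lay close together and replicate 7 was the lowest of the kidney group, still above every spleen and marrow library. The log2 fold change was 2.44 ± 0.42 (SE, n = 3, edgeR adjusted p = 0.00909), and without kidney replicate 8 it was 2.09 ± 0.41 (edgeR adjusted p = 0.0242). In FPKM Ly6i was at 23.997, 23.2 and 26.1 against 50.3, 182 and 94.1, and limma-trend on log2(FPKM + 1) kept the call. Without any single spleen and marrow library it was lost (edgeR adjusted p = 0.0545 to 0.0624).

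Ly6e, a widely expressed member known to influence the entry of several viruses, was lower in kidney but by much less than Ly6c2. It was at 4380.2, 4034 and 4353 CPM in spleen and marrow and at 2119, 3147 and 2483 CPM in kidney replicates 7, 8 and 22. The groups did not overlap, and the level fell 1.65-fold (log2 fold change -0.72 ± 0.16, SE, n = 3, edgeR adjusted p = 0.0218). Limma-trend on log2(FPKM + 1) gave -0.85 ± 0.23 (adjusted p = 0.0537), and the call was also lost without any single spleen and marrow library (edgeR adjusted p = 0.0679 to 0.0915).

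Ly6d, a marker of lymphoid progenitors committed to the B cell lineage, had few counts in every library. It had 33, 46 and 66 counts in spleen and marrow and 1, 25 and 15 counts in kidney. Kidney replicate 7 stood apart with its single count, and the 4.40 CPM of replicate 22 exceeded the 3.79 CPM of replicate 2, so the groups overlapped. The log2 fold change was -1.22 ± 0.92 (SE, n = 3, edgeR adjusted p = 0.436), and no alternative setting gave a call.

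Levels of different genes can be compared only per transcript length, on the FPKM scale. In spleen and marrow the order was Ly6c2 at 3974 ± 288 FPKM (SD, n = 3), Ly6e at 978 ± 39.6, Ly6c1 at 570.2 ± 45.4, Ly6a at 26.5 ± 9.26, Ly6i at 24.4 ± 1.54 and Ly6d at 4.63 ± 1.61. Ly6a and Ly6i did not differ beyond their spread there, and the place of Ly6c1 rests on the FPKM split. In the kidney the order of the means was Ly6e at 559 ± 179, Ly6c2 at 469 ± 232, Ly6c1 at 330 ± 443, Ly6a at 294 ± 325, Ly6i at 109 ± 67.0 and Ly6d at 2.08 ± 1.83. Among the kidney libraries the first 4 of these overlapped, so their order there does not hold beyond the spread. Ly6i, at 50.3 to 182 FPKM, overlapped Ly6c1 and Ly6a as well, but was below every kidney value of Ly6e and Ly6c2. The ratio of Ly6c2 to Ly6e in FPKM was 4.29, 3.98 and 3.91 in spleen and marrow and 0.491, 0.934 and 1.09 in kidney.

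Among the members, Ly6c1, Ly6d and Ly6a varied most between kidney libraries, but the spread of Ly6d rests on its 1 count in replicate 7. From its lowest to its highest kidney library Ly6c1 varied 41.1-fold, Ly6d 37.2-fold, Ly6a 11.3-fold, Ly6i 3.47-fold, Ly6c2 2.56-fold and Ly6e 1.48-fold in CPM. Over the 9801 tested genes with counts in every kidney library, the median gene varied 1.83-fold, and 0.367% varied more than Ly6c1 and 3.47% more than Ly6a. Tested genes at 0 in a kidney library have no such fold and were left out, so these shares do not cover all 10626 genes. In FPKM Ly6d varied 41.7-fold, Ly6c1 15.9-fold and Ly6a 11.5-fold, so that the first place of Ly6c1 rests on the counts. In spleen and marrow no member varied more in CPM than Ly6a, at 2.13-fold. The median there was 1.29-fold over 10445 genes with counts in every library of the group.

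Over the 6 libraries, which share the difference between sites, log2 CPM correlated at r = 0.97 between Ly6a and Ly6i, at 0.95 between Ly6c1 and Ly6a and at 0.96 between Ly6c2 and Ly6e. On log2(FPKM + 1) the first and last of these were 0.98 and 0.91, but Ly6c1 and Ly6a were at -0.02. Ly6c1 and Ly6c2 were at r = -0.71 by counts and 0.77 by FPKM, so no sign can be given to their relation. Among 9983 named genes, the profile most like that of Ly6c2 was that of Tpx2, a spindle assembly factor (r = 0.9996), which had 70.5, 59.2 and 65.6 CPM in spleen and marrow and 3.67, 8.59 and 10.3 CPM in kidney, followed by Tmsb10 and Ckap2l. For Ly6e it was Cenpq, a centromere protein (r = 0.998), followed by Snrnp35 and Hdac1.

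By counts, the profiles closest to Ly6c1 were H2-K1, a class I histocompatibility gene, Fabp4, a fatty acid carrier of capillary endothelium and fat cells, and Slc9a3r2 (r = 0.997 each). Fabp4 had 4.71, 6.43 and 3.64 CPM in spleen and marrow and 43.3, 1451 and 86.0 CPM in kidney replicates 7, 8 and 22, with replicate 8 far above the others as for the counts of Ly6c1. On log2(FPKM + 1) these 3 likenesses to Ly6c1 were lost, at r = 0.23 for H2-K1, -0.06 for Fabp4 and 0.23 for Slc9a3r2, and they rest on the count split. Ly6a was closest to Cmtm3 (r = 0.993), Tmem9 and Il2rg, a shared chain of cytokine receptors. Ly6i was closest to Alkbh6 (r = 0.995), Ehd4 and Ppap2b, and Ly6d to Znrf1 (r = 0.992, but 0.58 on log2(FPKM + 1)), Fam118b and Olfml2b. These are descriptions over 6 libraries.

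Kidney replicate 8 was also the library with the most endothelial transcripts. The 15 endothelial markers summed to 11.9, 7.52 and 9.11 CPM in spleen and marrow and to 33.3, 1006 and 22.9 CPM in kidney. In replicate 8 none of them was at 0, in replicate 7 there were 2 at 0 and in replicate 22 there were 8, against 8 to 11 in spleen and marrow. Ly6c1 (24.5, 1008 and 46.7 CPM) and Ly6a (100.1, 1133 and 391 CPM) were highest in the same kidney library. Ly6i was at 257 CPM in replicate 22, where the endothelial sum was 22.9 CPM, and at 315 CPM in replicate 8. Every kidney sum was above those of spleen and marrow. By counts, Ly6c1, Ly6a and Ly6i were above spleen and marrow without replicate 8 too, with the fold changes already given. By FPKM this held for Ly6a and Ly6i, while Ly6c1 in replicates 7 and 22 (52.8 and 95.9 FPKM) was below spleen and marrow. The part of endothelial transcripts in these results was not tested.

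**Figure D4:**
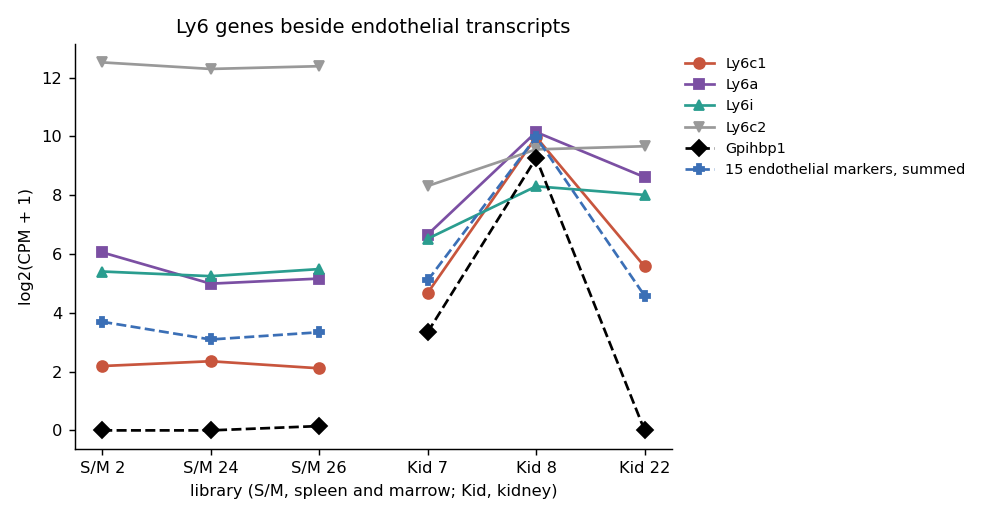
Levels as log2(CPM + 1) in each of 3 spleen and marrow libraries (S/M) and 3 kidney libraries (Kid) for Ly6c2, Ly6c1, Ly6a, Ly6i and the related Gpihbp1, with the sum of 15 endothelial markers as a dashed blue line. Lines join libraries of a group for reading only. Replicate 8 of the kidney has the peak of Ly6c1, Ly6a, Gpihbp1 and the endothelial sum, while Ly6c2 and Ly6i are at like levels in kidney replicates 8 and 22.

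Sums of markers listed for other cells differed between the libraries too. Such sums do not show which cells carry the transcripts. Whether the monocytes themselves carry some of them, such as S100a8 and S100a9 of the neutrophil list, was not tested. The 16 markers of kidney and urinary epithelium summed to 1.72 to 3.15 CPM in spleen and marrow and to 190.3, 81.5 and 549 CPM in kidney replicates 7, 8 and 22, an order unlike that of any Ly6 member. The 14 neutrophil markers summed to 23864, 30328 and 31687 CPM in spleen and marrow and to 1804, 4988 and 46199 CPM in kidney, so that kidney replicates 7 and 8 were below the other group, as for Ly6c2 and Ly6e, and replicate 22 was above it, unlike either. The 10 stromal and podocyte markers were at 115 CPM in replicate 8 and at 12.2 to 21.1 CPM in the other 5 libraries. Markers of T cells, on which Ly6C and Sca-1 also occur, summed to 4.70 to 13.8 CPM over all libraries, and 8 markers of natural killer cells to 96.2 to 112 CPM in spleen and marrow and 6.16 to 40.5 CPM in kidney. Summed markers of B and plasma cells lay between 32.6 and 62.0 CPM and those of stem and progenitor cells between 18.8 and 108 CPM. Those of plasmacytoid dendritic cells summed to 37.2, 45.6 and 37.9 CPM in spleen and marrow and to 73.9, 95.3 and 101 CPM in kidney. In kidney, Klk1, which kidney tubules also express, gave 21.2, 7.83 and 71.9 CPM of this, and without it the kidney sums were 52.7, 87.4 and 29.4 CPM. The part of these cells in the Ly6 results was not tested.

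The lower Ly6c2 was set beside the monocyte lists. Of 14 classical monocyte markers 4 fell by edgeR, with a median log2 fold change of -0.80, and 1 rose. At an unadjusted p under 0.05 6 fell and 2 rose, and in DESeq2 and in limma-voom 6 fell and 1 rose. Among those that fell by edgeR were Mgst1, a microsomal glutathione transferase (-1.40 ± 0.16, edgeR adjusted p = 0.00166), and Hp, which encodes haptoglobin (-1.26 ± 0.16, edgeR adjusted p = 0.00263). Il1rn, the interleukin-1 receptor antagonist, was the one that rose by edgeR (3.18 ± 0.51, edgeR adjusted p = 0.00687). Ccr2, the chemokine receptor that lets classical monocytes leave the marrow, was named after its values were seen, and at 0.45 ± 0.18 on the log2 scale it did not pass the test (edgeR adjusted p = 0.141). Of 12 non-classical markers 6 rose and 0 fell by edgeR, with a median of 1.37. At an unadjusted p under 0.05 8 rose and 0 fell, in DESeq2 8 and 0, and in limma-voom 6 and 1. Among those that rose were Cx3cr1 (2.45 ± 0.21, edgeR adjusted p = 0.000761) and Fcgr4 (2.32 ± 0.22, edgeR adjusted p = 0.00104). The median over all 10626 genes was 0.05, and 7.83% of them were called higher and 5.9% lower.

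Members of the wider Ly6 and urokinase receptor family mostly had few or no counts. Of 37 listed, 31 had a row, 13 of these had no count in any library and 3 were tested. By edgeR 0 of the 3 were called, beside 13.7% of all genes, with 1 lower at an unadjusted p under 0.05 and 0 calls in DESeq2 or limma-voom. Plaur, the urokinase receptor itself, was at 271 ± 65.3 CPM in spleen and marrow and 284 ± 35.1 CPM in kidney (SD, n = 3; log2 fold change 0.07 ± 0.20, edgeR adjusted p = 0.861). Ly6k had 29, 12 and 16 counts in spleen and marrow and 0, 5 and 0 in kidney replicates 7, 8 and 22 (edgeR adjusted p = 0.105), and Ly6f had 36, 17 and 28 against 2, 5 and 9 (edgeR adjusted p = 0.271). Lynx1, Ly6g5b, Ly6g6c, Ly6g6d and the rows 2010109I03Rik (now Ly6m) and 9030619P08Rik had 14 or fewer counts in any library except Ly6g6d, with 15 in kidney replicate 8.

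Gpihbp1, the family member that carries lipoprotein lipase across capillary endothelium, was near 0 in most libraries and high in 1. It had 0, 0 and 1 counts in spleen and marrow and 77, 4842 and 0 counts in kidney replicates 7, 8 and 22. The kidney total of 4919 counts came almost wholly from replicate 8, and with 1 count in the other group the ratio is 6311 with a 95% counting interval of 1132 to 249312. Cd59a, a complement inhibitor of the family, had 4, 3 and 0 counts against 27, 348 and 0, with the same order among the kidney libraries. Neither passed the filter for testing. Both were at 0 in kidney replicate 22, and their relation to the Ly6 members was not tested.

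In the order of genes on chromosome 15 in the RefSeq table (GRCm38, used for order only), Ly6e, Ly6i, Ly6a, Ly6c1 and Ly6c2 are consecutive protein-coding genes. Of these 5 neighbours, both ends, Ly6e and Ly6c2, were lower in kidney, and Ly6i, Ly6a and Ly6c1 between them were higher by their counts. Beyond Ly6e the genes Ly6m, Cyp11b2, Cyp11b1, Gml2 and Gml had between 0 and 11 counts in any library. Farther along the same side lie Ly6k, then Ly6g6g, which had no row, and then Ly6d, next to Lynx1. On the other side Ly6f lies before Ly6h, which had no count, and Gpihbp1. Ly6e and its neighbour Ly6i thus went in opposite directions, while for Ly6c1 and Ly6c2 this holds by counts and not by FPKM, where Ly6c1 had -1.80 on the log2 scale and did not pass the test.

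Genes that make and attach the GPI anchor on which these proteins depend gave few calls. Of 30 listed, 26 were tested and 0 were called by edgeR, beside 13.7% of all genes. At an unadjusted p under 0.05 1 was higher and 2 were lower, with 0 calls in limma-voom and 1 lower in DESeq2. The median log2 fold change was 0.01, and the summed level was 993 to 995 CPM in spleen and marrow and 905, 986 and 950.3 CPM in kidney replicates 7, 8 and 22. The most abundant were Dpm1 and Dpm3, subunits of the enzyme that supplies dolichol-phosphate mannose, with log2 fold changes of -0.03 ± 0.13 (edgeR adjusted p = 0.906) and -0.15 ± 0.14 (edgeR adjusted p = 0.559).

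Interferons are known inducers of several Ly6 genes, Ly6a and Ly6e among them, and target lists of both interferon types were read. Of 18 tested targets of interferon gamma 7 rose and 0 fell by edgeR, beside 7.83% higher and 5.9% lower among all genes. At an unadjusted p under 0.05 14 rose and 0 fell, in DESeq2 13 and 0, and in limma-voom 6 and 0. The median log2 fold change of these targets was 1.48. All 21 listed targets summed to 2088, 1637 and 1729 CPM in spleen and marrow and to 1602, 3194.5 and 2619 CPM in kidney replicates 7, 8 and 22. By this sum kidney replicate 7 was below every spleen and marrow library. The chemokine Cxcl9 was at 11.1, 6.29 and 6.54 CPM in spleen and marrow and 99.5, 294 and 114 CPM in kidney replicates 7, 8 and 22 (4.40 ± 0.50, edgeR adjusted p = 0.00171). Cxcl10 (3.29 ± 0.56, edgeR adjusted p = 0.00935) and the GTPase Iigp1 (4.45 ± 0.57, edgeR adjusted p = 0.00298) also rose. Cxcl9 and Iigp1 were highest in replicate 8, as Ly6a and Ly6i were, and Cxcl10 was highest in replicate 22.

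Of 24 tested targets of type I interferon 0 rose and 1 fell by edgeR, beside 7.83% higher and 5.9% lower among all genes, with 3 higher and 2 lower at an unadjusted p under 0.05, 2 higher and 2 lower in DESeq2 and 0 higher and 2 lower in limma-voom. The median log2 fold change was 0.11, beside 0.05 over all genes, and the difference from the interferon gamma list was not tested. The gene that fell was Ifitm3, an antiviral membrane protein, from 7918 ± 333 to 4300.1 ± 649 CPM (SD, n = 3, log2 fold change -0.88 ± 0.13, edgeR adjusted p = 0.00573), beside -0.72 for Ly6e.

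The fold changes under all settings fall into 3 kinds. Ly6c2 kept its call in each, Ly6c1 changed sign between the tables, and Ly6a, Ly6i, Ly6e and the sum of the pair kept their direction and lost their calls in some settings. No setting moved Ly6d past the threshold.

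**Figure D5:**
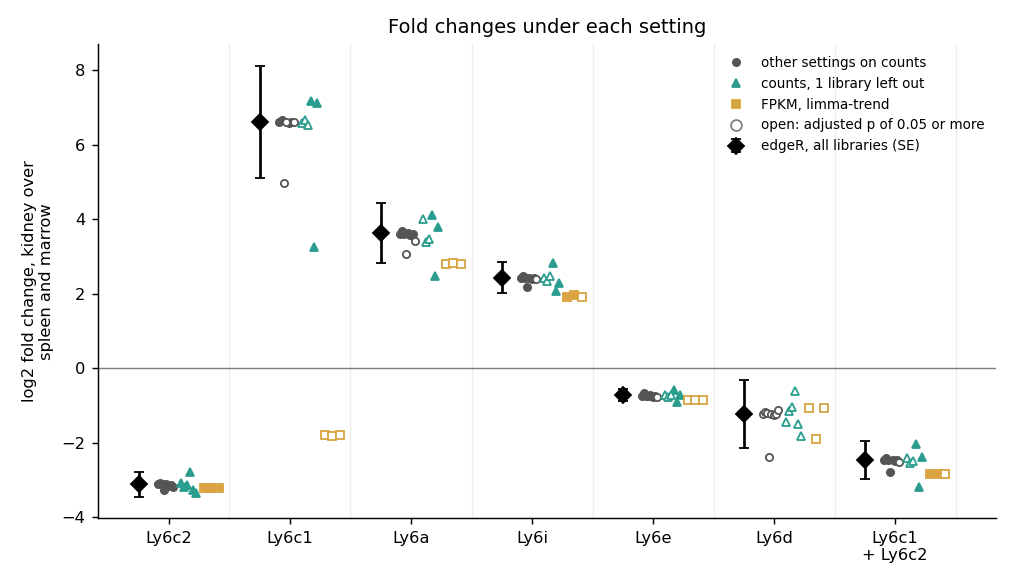
Log2 fold change of kidney over spleen and marrow for each Ly6 gene and the sum of the Ly6c pair. Black diamonds with SE bars are edgeR on all 6 libraries, grey circles other settings on counts, green triangles edgeR with 1 library left out and yellow squares limma-trend on FPKM. Open symbols have an adjusted p of 0.05 or more, and the FPKM squares of Ly6c1 lie near -1.8 while its count values lie between 3.27 and 7.18.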

How the data were processed

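RNA was measured in 6 libraries, made per the labels' protocols with SMART-Seq v4 from 2 ng of RNA, sheared cDNA and ThruPLEX reagents, which do not mark strand. The deposited counts are the authors' whole-number counts per gene symbol. The deposited FPKM values were scaled by the authors for depth and transcript length. The submitters' processing notes name STAR 2.5, Cufflinks 2.2.1, bcl2fastq 2.18 and the build mm9 without their roles. Which program counted reads, how it treated reads that match several genes, and which annotation it used is not given in the sources used here.

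Counts were filtered with filterByExpr, scaled with TMM and tested with edgeR 4.0.16 (glmQLFit and glmQLFTest, two-sided), with Benjamini-Hochberg adjusted p-values under 0.05 as calls. SE values were computed as the absolute log2 fold change over the root of F. CPM values divide a count by the TMM-adjusted library size, while the ratio of FPKM to CPM uses unadjusted totals. A floor of 3 counts corresponds to 0.322 to 0.881 CPM. Alternatives were DESeq2 1.42.0, its size factors, library size scaling, other filters, limma-voom and limma-trend (limma 3.58.1), a robust fit and leaving out each library. Summing replicates 24 and 26 was an alternative added after seeing the data. The scripts were tested on simulated data.

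Named were the 7 members, family genes with at least 10 counts in all, the 3 genes most correlated with each member, up to 3 calls per list and direction (or the 2 most abundant genes of a list with none) and genomic neighbours. Some genes the rule took are left out for space, and 1 gene is not reported here. Members and the 16 lists were chosen with earlier results of these data known. Coding sequences come from GENCODE M21 and promoters from RefSeq, neither of the build of the files, and no coordinates were carried between builds.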

Additional observations from a re-analysis of the deposited data

How the results depend on the processing

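No paired analysis was possible because the groups share no replicate number. Ly6c2 kept its call in 17 of 17 alternatives. Ly6c1 kept it in 7 of 16, lost it in 6 and reversed in the 3 on FPKM, at -1.80 on log2(FPKM + 1), -1.81 on log2(FPKM + 0.1) and -1.80 with no filter (limma-trend adjusted p = 0.243, 0.261 and 0.417). DESeq2 gave Ly6c1 a log2 fold change of 6.61 ± 1.41 and no adjusted p. Ly6a kept its call in 9 of 17, Ly6i in 12 and Ly6e in 10, all without a change of direction. The sum of the pair kept its call in 12 and lost it on FPKM with no filter (-2.84, limma-trend adjusted p = 0.0603), with replicates 24 and 26 summed (-2.52, edgeR adjusted p = 0.0650) and without each spleen and marrow library, over a leave-one-out range of -3.17 to -2.04.

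Of the members, 3 were called higher and 2 lower. With limma-voom 1 was higher. On FPKM with either pseudocount 1 was higher and 1 lower, and with no filter 0 and 1. With replicates 24 and 26 summed it was 0 and 1, and leaving out 1 library gave 0 to 3 higher and 1 to 2 lower. Over all genes, 832 were higher and 627 lower. On FPKM 407 were higher with either pseudocount and 333 with no filter, DESeq2 called 995 lower, and the summed libraries gave 299 higher and 201 lower. Leaving out 1 library gave 260 to 1569 higher and 179 to 1215 lower. The lowest counts came without spleen and marrow replicate 26 and the highest without kidney replicate 22. The share of calls that were higher was 57.0%, but 46.8% in limma-voom and 38.4% to 41.5% on FPKM. The cause was not tested, other than that fewer libraries enter the fits that leave one out or sum libraries. Depth limits Ly6d most, with 1 to 66 counts per library.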
